A study of Microtus ochrogaster with 34 samples.

Results

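Among the 23038 genes of the testis RNA-seq table, 41 genes varied strongly among the testes of winter males that had stopped spermatogenesis (W-) and little among those of summer males (S). They were chosen by their measured values, as genes with a mean over the W- libraries between 5 and 200 RPKM (reads per kilobase of exon, scaled to library size), a coefficient of variation (CV, the SD divided by the mean) of at least 0.6 over W- and under 0.3 over S, and a mean in S within 2-fold of the mean in W- and of the mean in winter males that maintained spermatogenesis (W+). The gene identifiers with the final digits from 1 to 37 were left out by this choice. Another 4560 genes met every condition except the CV over W-, and serve below as the comparison genes. The sizes of the spread over W- and over S, and the closeness of the group means, are therefore properties of the choice and not findings.

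The males were wild fossorial water voles, Arvicola terrestris scherman, an agricultural pest of grassland, trapped in January or February (winter) or in July or August (summer), and each library was made from the testis of an adult male listed as wild type. There were 18 S, 11 W- and 5 W+ libraries. The W- group pooled males with empty seminiferous tubules and males with an intermediate histology that still had immature germ cells, whereas W+ males had complete spermatogenesis and spermatozoa in the epididymis. The animals received no treatment. Per the paper, they were trapped at several sites in consecutive years and housed indoors under controlled temperature and light before sampling. The paper does not give site or year library by library. The sample labels name the prairie vole Microtus ochrogaster as the organism, which is the species of the reference genome, while the description of the series names Arvicola terrestris. No table used here pairs the gene identifiers with symbols. The 41 genes are thus described by identifier, with no function or sequence, and neither the tissue nor any cell type could be checked against its markers.

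In seasonal breeders, short days lower the drive of the pituitary to the testis, testosterone falls and the seminiferous tubules lose their meiotic and post-meiotic germ cells, so that the regressed organ shrinks and the somatic cells (Sertoli, Leydig, peritubular, vascular and immune cells) make up more of it. Regression and recrudescence are gradual processes, and animals caught on the same days can stand at different points of them. The W- group may thus hold testes at several stages, which the sources used here do not give library by library. In whole-tissue RNA, fewer cells of a type and less RNA per cell cannot be told apart.

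The W- libraries held between 2938627 and 9653984 counted reads (median 7986021), the S libraries between 5534633 and 63857259 (median 7504568) and the W+ libraries between 4960104 and 8576453 (median 6440073). The shallowest was W- replicate 5. Among the W- libraries, replicates 6 and 9, 7 and 10, and 8 and 11 resembled each other closely, with a spread between libraries (a robust SD of log2 RPKM per library, from the median absolute difference over genes of at least 10 RPKM) of 0.0976 to 0.115, against 0.141 to 0.273 for the other pairs among replicates 6 to 11 and 0.213 to 0.665 for the remaining W- pairs. The study describes 34 animals, as many as the libraries, and each of the 3 pairs differed by more than sampling noise, with a median chi-square per gene 1.92 to 2.17 times that expected from counting alone. This excess cannot show that the libraries of a pair came from different animals, because repeat libraries of 1 testis can also differ by more than counting. The spread was between 0.1002 and 0.406 for S pairs. The 11 W- libraries were kept as separate samples, and counts among the 41 genes are also given with each close pair averaged and without replicate 5.

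The CV over W- of the 41 genes ran from 0.601 to 0.913 (median 0.662), and that over S from 0.0808 to 0.297 (median 0.233). The comparison genes had a median CV of 0.140 over S, so that the 41 genes lay in the upper part of the range that the limit on S allowed. They were moderately expressed, with means over W- of 5.18 to 58.5 RPKM, over S of 3.35 to 81.2 RPKM and over W+ of 3.43 to 60.3 RPKM. The mean over W- was above that over S in 22 of the 41 genes. Counting error accounted for a small share of the variance over W-, between 0.148% and 8.72% (median 1.19%), and 37 of the 41 genes kept a CV of at least 0.6 after the counting variance was taken off.

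**Figure D1:**
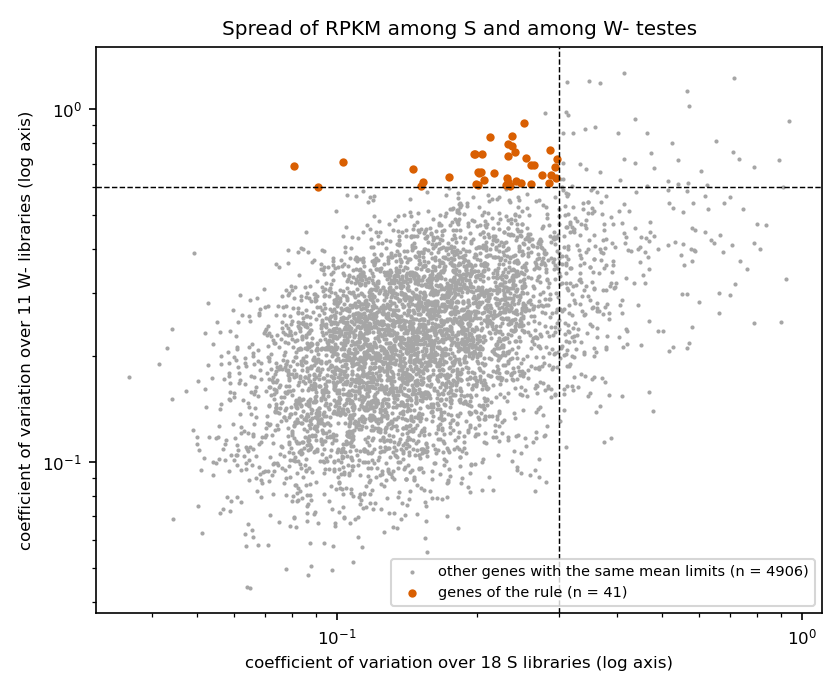
Coefficient of variation of RPKM over the 18 S libraries (x, log axis) against that over the 11 W- libraries (y, log axis) for the 4947 genes with the same limits on the W- mean and on the ratio of S to W-, with the 41 chosen genes in orange and dashed lines at the limits of 0.3 and 0.6. The orange points fill the upper left corner by construction, most of them between 0.2 and 0.3 on the x axis.

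The limit of 0.6 cut through a continuous range of values. Just inside it were ENSMOCG00000017596 (CV over W- 0.601, over S 0.0909) and ENSMOCG00000000739 (0.605 and 0.236), and just outside were ENSMOCG00000008828 (0.599 and 0.174) and ENSMOCG00000017691 (0.594 and 0.231). Among the 4947 genes with the same limits on the means, 85 had a CV of at least 0.6 over W-, 35 over S and 10 over both. Without the condition on W+, the choice gave 42 genes, and the same choice with S and W- exchanged gave 5.

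The spread over the W+ libraries was not used by the choice, and it shows in part whether the variation was confined to regressed testes. The CV over the 5 W+ libraries was between 0.0184 and 0.739 with a median of 0.319 for the 41 genes, against a median of 0.156 for the comparison genes. It was under 0.3 for 17 of the 41 genes, between 0.3 and 0.6 for 22, and at least 0.6 for 2, namely ENSMOCG00000016944 and ENSMOCG00000003360. Of the 4560 comparison genes, 309 lay between 0.3 and 0.6 and 2 at or above 0.6. The difference stood at like spread over S. Among genes with a CV over S from 0.2 to 0.3, 19 of 31 chosen genes (61.3%) had a CV of at least 0.3 over W+, against 145 of 806 comparison genes (18.0%), and below 0.2 the counts were 5 of 10 (50.0%) and 166 of 3754 (4.42%). The genes were matched on the CV over S only, and not on level or reads. The median reads over W- were 175 for the 41 genes and 406 for the comparison genes. The 5 of 10 include ENSMOCG00000012057 and ENSMOCG00000012068, which may share reads, with a ratio of 0.963 to 1.03 in all 34 libraries. Genes that vary together over the same 5 libraries are not independent, so these counts are a description and no test. Within these limits, the 41 genes were steady over S and spread over W-. Many of them were also spread over the W+ libraries.

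ENSMOCG00000016944 had the largest CV over W+. Its W+ values were 21.0, 7.13, 6.10, 3.35 and 8.79 RPKM in replicates 1 to 5, while the S libraries ran from 3.57 to 11.2 RPKM with a median of 5.94. W+ replicate 1 was thus above every S library, replicate 4 just below the S range and the other 3 within it. In W- the same gene reached 20.9 to 24.8 RPKM in replicates 6, 7, 9 and 10 and lay between 2.72 and 11.8 RPKM in the other 7. W+ replicate 1 was also the W+ library nearest to W- over the whole transcriptome, at a position of 0.580 on a scale with the W- mean at 0 and the S mean at 1, against 0.753 to 0.839 for the other 4.

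Relative to the S libraries, most of the 41 genes went both ways. In 34 of the 41 genes (82.9%) at least 1 W- library lay below the lowest S library and at least 1 above the highest, against 806 of the 4560 comparison genes (17.7%). A further 3 of the 41 genes had W- libraries below the S range and none above, and 4 had W- libraries above and none below. Because the choice asked for similar means and a large spread in W-, this two-sided pattern is in large part a property of the choice. The median of the ratio between the highest and the lowest W- library, computed on RPKM + 0.1, was 8.59 for the 41 genes and 1.98 for the comparison genes, and the corresponding medians were 2.40 and 1.71 over S and 2.20 and 1.47 over W+.

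The share of the 41 genes outside the S range in a given W- library was between 56.1% and 75.6%, with the highest share in replicate 5, and that of the comparison genes between 55.5% and 65.1%. The 41 genes were thus outside the S range about as often as the comparison genes in most W- libraries, but farther from the S mean: the median absolute log2 ratio to the S mean was between 0.58 and 1.18 across the W- libraries for the 41 genes, and between 0.45 and 0.57 for the comparison genes. This larger distance is in large part a property of the choice, which asked for a large spread over W- at similar means.

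No W- library carried the pattern alone. The highest W- value was in replicate 5 for 8 genes, in replicate 11 for 7, in replicate 9 for 6, in replicate 8 for 5, in replicate 4 for 4, in replicates 7 and 10 for 3 each, in replicate 6 for 2, and in replicates 1, 2 and 3 for 1 each. In 14 of the 41 genes the CV over W- stayed at or above 0.6 whichever W- library was left out. Leaving out replicate 5 had the largest effect, with 29 of the 41 genes still at 0.6 or above, whereas all 41 stayed there without replicate 6 or without replicate 9. Leaving out either library of a close pair keeps its counterpart, so these counts cannot show how far a gene rests on a pair. With the close pairs averaged, 33 of the 41 genes still met the choice.

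To describe which libraries were high, the 41 genes were grouped by the similarity of their log2 values over the 11 W- libraries (average linkage on 1 minus Pearson's r, with groups separated at 0.5). The grouping was made on the values themselves and carries no test. It gave 3 groups of 13, 9 and 8 genes, 3 groups of 3 genes and 2 single genes.

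**Figure D2:**
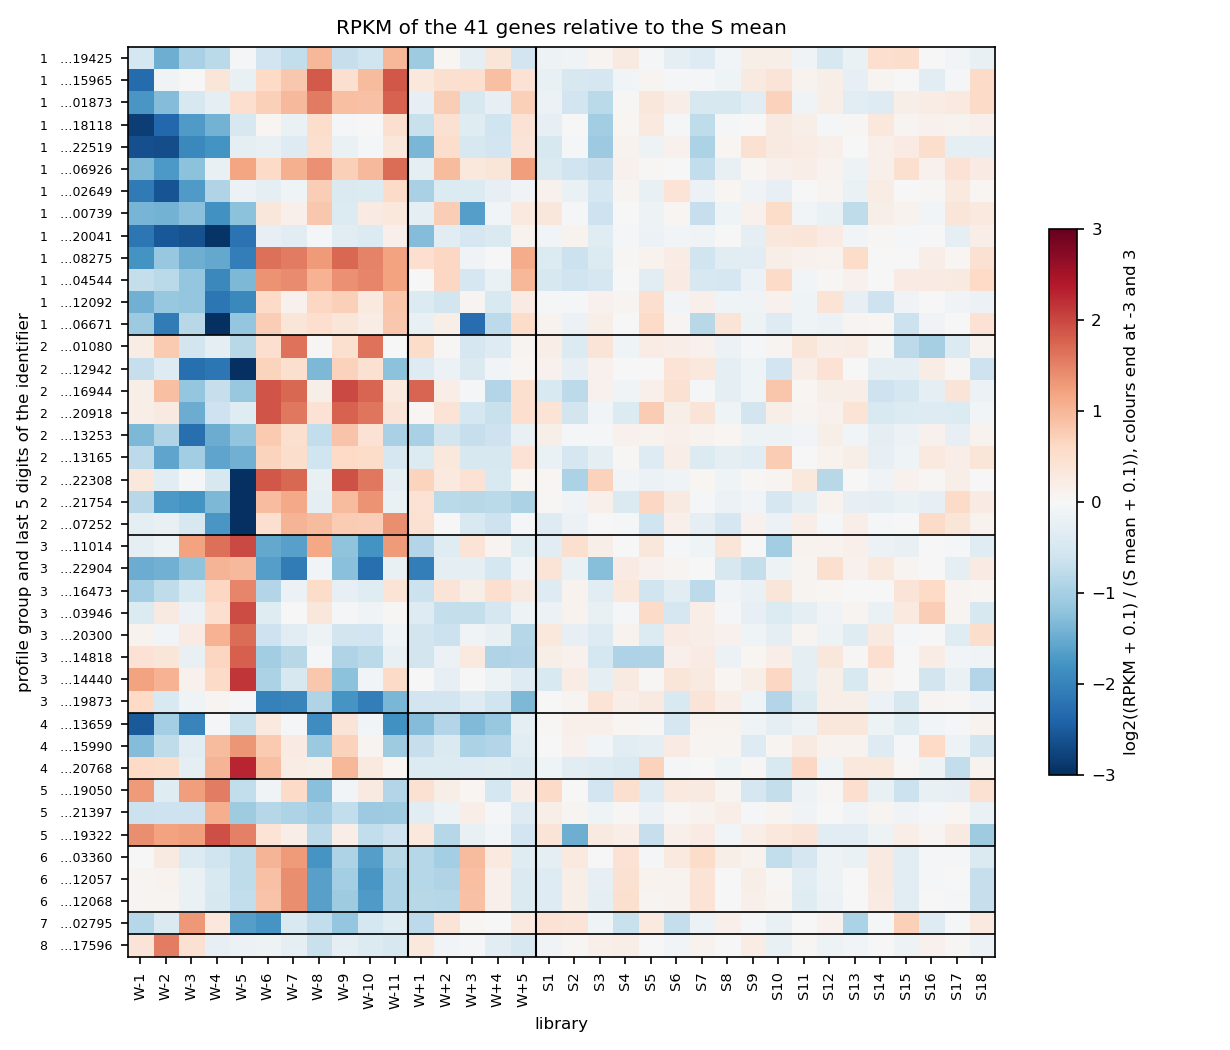
log2 ratio of each of the 41 genes (rows, by profile group and last 5 digits of the identifier) to its S mean, on RPKM + 0.1, in the 11 W-, 5 W+ and 18 S libraries (columns), with red above and blue below the S mean and the colours ending at -3 and 3. In profile group 1 the W- replicates 1 to 4 are mostly blue and 6 to 11 mostly red or pale, in profile group 2 replicates 6, 7, 9 and 10 are red, and in profile group 3 replicate 5 is the reddest column.

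Profile group 1 held 13 genes that were low in W- replicates 1 to 4 and mostly higher in replicates 6 to 11, with replicate 5 between them or on either side. Relative to the S mean, the median over these genes was between 0.279 and 0.421 in each of replicates 1 to 4 and was 0.714 in replicate 5. Over replicates 6 to 11 it was 1.48, with 1.78 in replicates 8 and 11. In 9 of the 13 genes, all of replicates 1 to 5 lay below all of replicates 6 to 11. The median Pearson's r between pairs of these genes was 0.77 over the 11 W- libraries and 0.35 over the 18 S libraries. Within each group of libraries, the genes of a pair were measured in the same libraries and so shared their depth.

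ENSMOCG00000020041 was the most abundant gene of profile group 1. Its W- values were 18.0, 13.8, 13.2, 10.5 and 17.5 RPKM in replicates 1 to 5, and 68.2, 63.7, 78.9, 63.7, 60.9 and 90.9 RPKM in replicates 6 to 11. The S libraries ran from 62.6 to 104 RPKM with a median of 79.8, and the W+ libraries were at 32.8, 64.5, 57.6, 60.1 and 86.8 RPKM. Replicates 1 to 5 were therefore below every S and every W+ library, whereas replicates 6 to 11 lay within or just under the S range. The lowest W- library rested on 257 reads.

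ENSMOCG00000008275 and ENSMOCG00000004544 had the same split between replicates 1 to 5 and 6 to 11, with another order within replicates 6 to 11. ENSMOCG00000008275 was at 1.09, 1.79, 1.40, 1.32 and 0.886 RPKM in W- replicates 1 to 5 and at 12.9, 12.2, 10.0, 13.5, 11.5 and 9.54 RPKM in replicates 6 to 11, around an S range of 2.56 to 5.95 RPKM (median 4.18). ENSMOCG00000004544 was between 3.11 and 7.44 RPKM in replicates 1 to 5 and between 25.1 and 34.1 RPKM in replicates 6 to 11, around an S range of 8.03 to 18.6 RPKM (median 12.1). For both genes no W- library lay within the S range, and the means over replicates 6 to 11 were 8.93 and 5.53 times those over replicates 1 to 5. Both genes were also spread over W+, with 3.77 to 8.84 RPKM for ENSMOCG00000008275 and 8.66 to 24.5 RPKM for ENSMOCG00000004544, the highest in W+ replicate 5 in each case.

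ENSMOCG00000022519 differed in that W- replicate 5 went with the high libraries. It was at 7.50, 7.36, 12.3 and 13.4 RPKM in replicates 1 to 4, at 38.7 RPKM in replicate 5 and between 35.7 and 65.4 RPKM in replicates 6 to 11, while the S libraries ran from 22.2 to 67.9 RPKM. Only replicates 1 to 4 were below the S range. W+ replicate 1, at 18.0 RPKM, was the lowest of the 5 W+ libraries, the other 4 of which were between 31.5 and 68.2 RPKM. The levels of this gene rest on few reads, with 16 in the lowest W- library and a median of 67.

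Profile group 2 held 9 genes that were mostly highest in W- replicates 6, 7, 9 and 10, the members of the first 2 close pairs. The exception at the top was ENSMOCG00000007252, highest in replicate 11. The median ratio to the S mean was 1.92 in these 4 libraries, 0.863 in replicates 8 and 11 and 0.558 in replicates 1 to 5. The median r between pairs of these genes was 0.82 over W- and 0.17 over S.

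ENSMOCG00000022308 was at 56.2, 51.3, 58.6 and 46.4 RPKM in W- replicates 6, 7, 9 and 10, at 19.2, 12.3, 15.1, 11.1 and 1.50 RPKM in replicates 1 to 5, and at 13.2 and 12.7 RPKM in replicates 8 and 11. The S libraries ran from 7.94 to 25.2 RPKM (median 15.8) and the W+ libraries from 11.2 to 24.8 RPKM. Only the 4 libraries of the close pairs were above the S range, and only replicate 5, with 4 reads, was below it. ENSMOCG00000012942 separated the same libraries around a higher S level: it was between 26.1 and 31.1 RPKM in replicates 6, 7, 9 and 10, between 2.30 and 14.7 RPKM in the other 7, and between 12.4 and 25.7 RPKM in S.

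W- replicate 5 was the lowest W- library for 5 of the 9 genes of this group. For ENSMOCG00000007252 and ENSMOCG00000021754 it held 0 reads, which at its depth allows levels of up to 0.763 and 1.22 RPKM (3 reads, covering counting error only). ENSMOCG00000007252 was at 1.92 to 17.5 RPKM in the other 10 W- libraries and ENSMOCG00000021754 at 2.98 to 27.1 RPKM, against S ranges of 4.38 to 9.93 and 7.40 to 16.3 RPKM. No fold is given for this library.

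Profile group 3 held 8 genes, of which 6 had their highest W- value in replicate 5 and 1 in replicate 4. The median ratio to the S mean over these genes was 3.36 in replicate 5 and 1.56 in replicate 4, against 0.531 in replicates 6, 7, 9 and 10 and 0.992 in replicates 8 and 11. The median r between pairs was 0.74 over W- and -0.11 over S. In every profile group the r over W- was used to form the group. Over S the choice kept the spread small, and counting error made up a median of 18.7% of the variance of the 41 genes. The r over W- and over S therefore cannot be compared as a test.

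ENSMOCG00000022904 had the largest CV over W-, 0.913. It was at 16.8 and 16.4 RPKM in W- replicates 4 and 5, at 7.75 and 7.10 RPKM in replicates 8 and 11, and between 1.63 and 3.55 RPKM in the other 7, while the S libraries ran from 3.34 to 11.5 RPKM (median 8.73). It is also among the genes with the fewest reads, with 10 in the lowest W- library and a median of 23. ENSMOCG00000011014 had a like order at a median of 365 reads: it was at 17.7, 24.2, 30.4, 17.2 and 18.8 RPKM in replicates 3, 4, 5, 8 and 11, at 6.38 and 6.91 RPKM in replicates 1 and 2, and between 2.14 and 3.27 RPKM in replicates 6, 7, 9 and 10. The last 4 libraries were below the S range of 3.70 to 10.7 RPKM and the 5 high ones above it.

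ENSMOCG00000003946 rested on W- replicate 5. It was at 25.4 RPKM there (185 reads) and between 4.87 and 9.27 RPKM in the other 10 W- libraries, all of which lay within the S range of 4.55 to 10.9 RPKM. Without replicate 5 its CV over W- was 0.211.

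The 3 groups of 3 genes had other orders. In profile group 4, ENSMOCG00000013659 was between 45.9 and 63.4 RPKM in W- replicates 4, 6, 7, 9 and 10 and between 8.44 and 30.9 RPKM in the other 6, against an S range of 34.5 to 62.3 RPKM. In profile group 5, ENSMOCG00000019050 was at 52.1, 51.4 and 61.8 RPKM in replicates 1, 3 and 4, above the highest S library at 31.8 RPKM, and between 8.91 and 31.9 RPKM in the other 8. ENSMOCG00000021397 was at 64.7 RPKM in replicate 4 and between 14.2 and 19.8 RPKM in the other 10, which were all below the S range of 26.3 to 34.8 RPKM; without replicate 4 its CV over W- was 0.137.

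Profile group 6 was the only group that split the close pairs. ENSMOCG00000012057 was at 114 and 162 RPKM in W- replicates 6 and 7, at 30.2 and 18.5 RPKM in their counterparts 9 and 10, at 19.96 and 32.4 RPKM in replicates 8 and 11, and between 36.6 and 66.2 RPKM in replicates 1 to 5. The S libraries ran from 38.4 to 85.2 RPKM (median 62.1), and the W+ libraries were at 34.3, 33.2, 115, 69.2 and 45.6 RPKM. The ratio of ENSMOCG00000012057 to ENSMOCG00000012068 was between 0.963 and 1.03 in all 34 libraries, so that these 2 genes may share reads and are uncertain as separate genes. ENSMOCG00000003360 followed them with an r of 0.99 over W- at a lower level, and the median r of the 3 genes was 0.74 over S, the highest of the 6 profile groups with more than 1 gene.

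**Figure D3:**
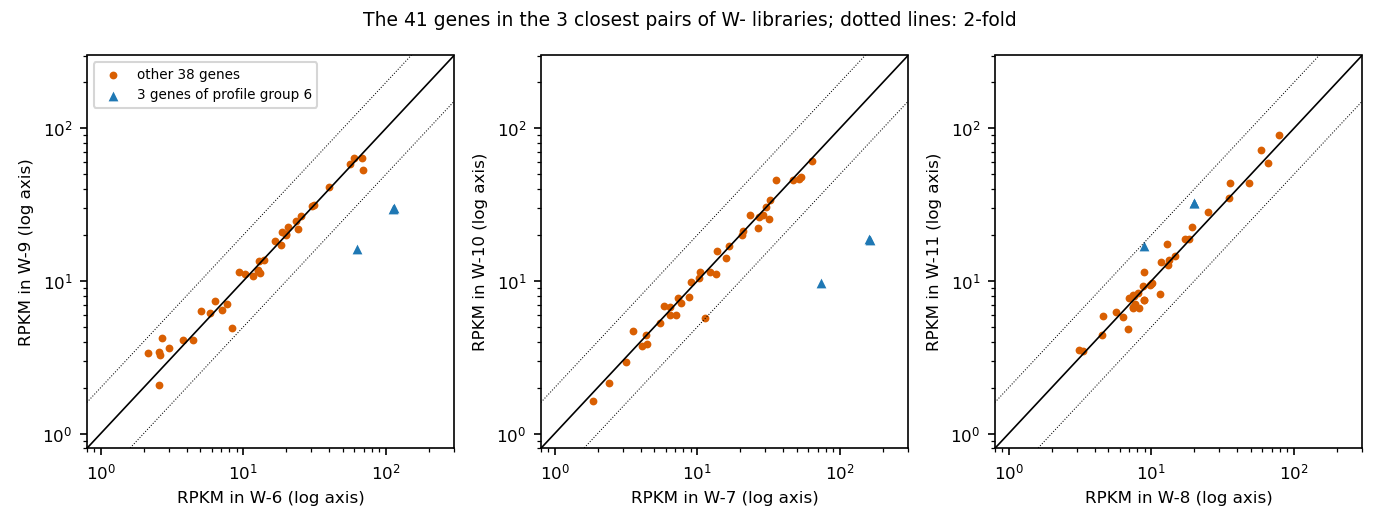
RPKM of the 41 genes in the 3 closest pairs of W- libraries (log axes), with the line of equality and dotted lines at 2-fold. The 3 genes of profile group 6 (triangles, with 2 of them overlapping) lie far below the line in the first 2 pairs, and the other 38 genes lie within 2-fold in every pair.

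Between W- replicates 6 and 9, 7 and 10, and 8 and 11, respectively 38, 38 and 41 of the 41 genes were within 2-fold, and the median absolute log2 difference was 0.12, 0.14 and 0.15. The genes beyond 2-fold were the 3 genes of profile group 6 in both pairs that had any. ENSMOCG00000003360, ENSMOCG00000012057 and ENSMOCG00000012068 were higher by 1.95, 1.91 and 1.92 on the log2 scale in replicate 6 than in replicate 9, and by 2.92, 3.12 and 3.08 in replicate 7 than in replicate 10. The genes of the other profile groups thus had like levels within each close pair. The pairs were picked as the W- libraries most alike over the transcriptome, so this likeness was largely fixed in advance. It does not count as a repeat of the differences.

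The 2 single genes each had a single high library. ENSMOCG00000002795 was at 18.9 RPKM in W- replicate 3 and between 2.16 and 9.58 RPKM in the other 10, against an S range of 3.87 to 12.5 RPKM. ENSMOCG00000017596, with a CV of only 0.0909 over S, was at 14.6 RPKM in W- replicate 2 and between 3.09 and 6.92 RPKM in the other 10, against 4.26 to 5.78 RPKM in S and 3.53 to 6.17 RPKM in W+. Without these libraries the CV over W- was 0.440 and 0.275.

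**Figure D4:**
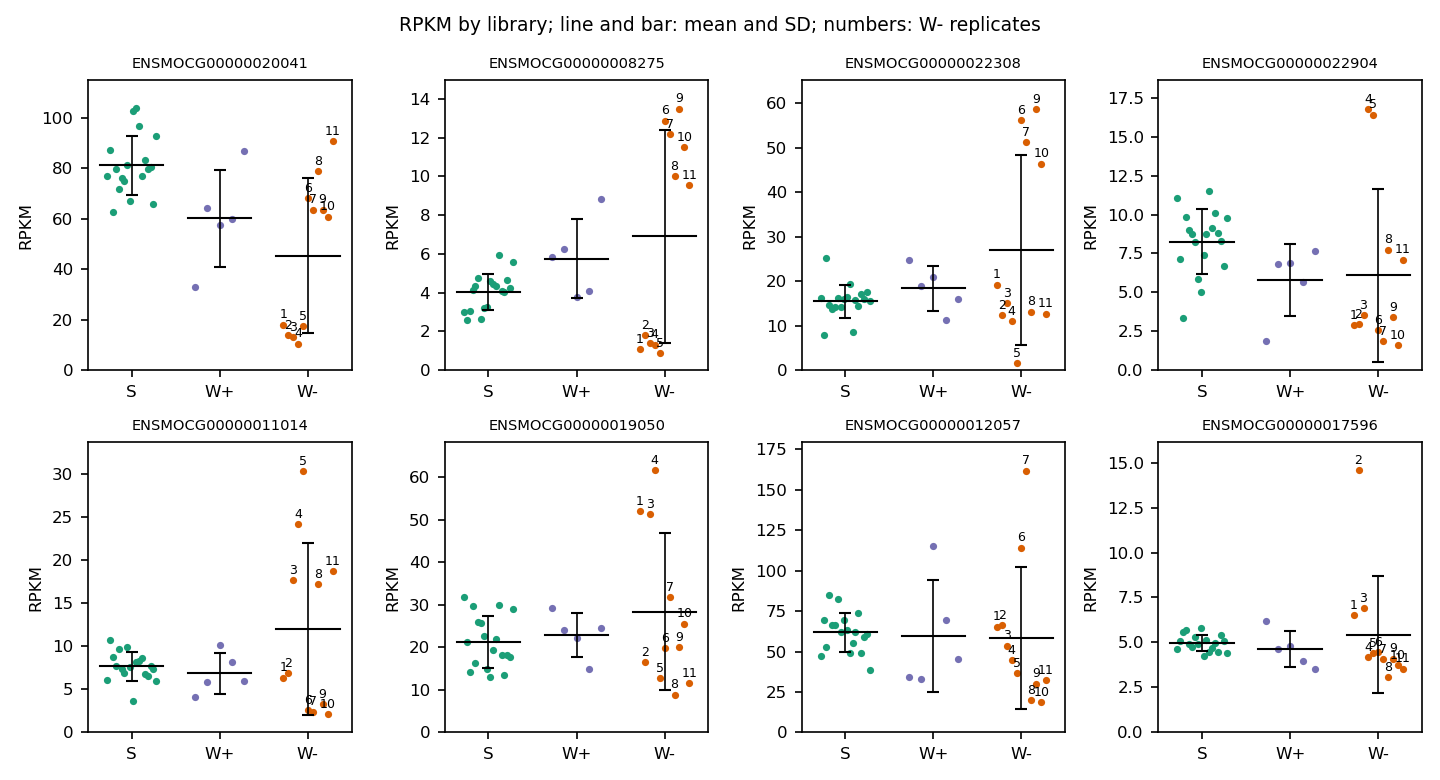
RPKM by library for 8 of the genes in S (n = 18), W+ (n = 5) and W- (n = 11), with the mean as a line, the SD as a bar, and W- points numbered by replicate. In every panel except that of ENSMOCG00000020041, W- points fall on both sides of the S points, with different replicates on top, for example 6, 7, 9 and 10 for ENSMOCG00000022308 and 4 and 5 for ENSMOCG00000022904.

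The 3 group comparisons were fitted over all 19185 genes with enough signal, which included all 41 genes. The choice used the group means and the spread over W-. The counts, differences and p-values of the 41 genes therefore describe the choice and are no test. All 34 libraries were in 1 fit with a shared spread per gene. The large spread over W- therefore entered the SE and p of the 41 genes in every comparison, also in W+ against S. The lack of calls among the 41 there does not show that their levels were alike. In S against W-, 51.6% of all genes tested were called (adjusted p under 0.05 and log2 fold change beyond 1), and 1 of the 41 was, ENSMOCG00000020041, which was higher in S by 1.23 on the log2(RPKM + 0.1) scale (SE 0.27, limma with Benjamini-Hochberg adjusted p = 8.37e-05). It was not called after quantile scaling or scaling to total reads. Its W- mean joined separate levels, 14.6 RPKM over replicates 1 to 5 and 71.1 RPKM over replicates 6 to 11. With the close pairs averaged, 5 of the 41 were called, all higher in S (ENSMOCG00000012942, ENSMOCG00000018118, ENSMOCG00000020041, ENSMOCG00000021754 and ENSMOCG00000022519), and without W- replicate 5, ENSMOCG00000020041 and ENSMOCG00000022904 were. In W+ against W-, 37.3% of all genes were called and 1 of the 41, ENSMOCG00000020768, which was lower in W+ (log2 difference -1.02, SE 0.25, limma with Benjamini-Hochberg adjusted p = 0.000623). Its difference was close to the limit, and it was not called with a pseudocount of 0.5 or 1, with voom, or without W- replicate 5, each of which called 0 of the 41. With the close pairs averaged, 3 of the 41 were called, ENSMOCG00000020041 higher in W+ and ENSMOCG00000019322 and ENSMOCG00000020768 lower. In W+ against S, 8.23% of all genes were called and 0 of the 41 with limma, of which 4 had an unadjusted p under 0.05; voom on the recovered reads also called 0, with 5 at an unadjusted p under 0.05. Without W+ replicate 5, ENSMOCG00000013659 was called, at a log2 difference of -1.14. ENSMOCG00000013659 came nearest among those described above, with a log2 difference of -0.96 (SE 0.30, limma with Benjamini-Hochberg adjusted p = 0.0174).

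Which W- libraries were high was not used by the choice, and was compared with how near each library was to S over the whole transcriptome. The choice did ask for a large spread over the same W- values, which favours genes that differ between sets of similar W- libraries. The counts of slopes among the 41 genes are therefore a description. Setting them against the shares of all genes is no test. The position of a library was its place between the mean of W- (0) and that of S (1), computed from 9889 genes called in S against W- that excluded the 41. W- replicates 1 to 4 were at 0.0475 to 0.133, replicates 6 to 11 at -0.0443 to -0.0112 and replicate 5 at -0.192, so that replicates 1 to 4 were the W- libraries nearest to S. The genes that set the position follow it by construction. These 4 also had the most reads among W-, 9004888 to 9653984, and replicates 6 to 11 had 5081433 to 8019103.

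Over all 11 W- libraries, 9.36% of the genes tested had a slope on position with an adjusted p under 0.05, 7.28% positive and 2.08% negative. Among the genes that did not set the position the share was 6.01%, 3.53% positive and 2.48% negative. Of the 41 genes 0 passed (limma with Benjamini-Hochberg adjustment), with 10 at an unadjusted p under 0.05. When the first principal component over all 34 libraries took the place of the position, 23.8% of the genes tested passed and 10 of the 41. On this component W- replicate 5, at -100.4, was near replicates 6 to 11, at -95.4 to -90.8. Replicates 1 to 4 were at -73.7 to -57.5. For the slope on log2 counted reads, 3.39% of the genes tested passed, 0.625% with a negative slope, and 0 of the 41, with 6 at an unadjusted p under 0.05. The spread of the 41 genes over W- was therefore not shown to follow the position or the counted reads over the 11 libraries.

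This result turned on W- replicate 5. Without it, 28.9% of the genes tested had a slope on position that passed (27.0% among genes that did not set the position, 14.2% positive and 12.7% negative), 19.2% positive and 9.70% negative, and 22 of the 41 genes passed, 5 with a positive slope and 17 with a negative slope. By profile group, 10 of the 13 genes of group 1 and 7 of the 9 of group 2 had a negative slope, and 3 of the 8 of group 3 and 2 of the 3 of group 5 a positive slope. When the close pairs were also averaged, 8.87% of the genes tested passed and 9 of the 41, 2 positive and 7 negative. Within replicates 6 to 11 alone 0 of the 41 passed and 0 of all genes tested.

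Without replicate 5, ENSMOCG00000008275 had a slope of -2.19 on the log2(RPKM + 0.1) scale for each 0.1 of position (SE 0.20, limma with Benjamini-Hochberg adjusted p = 0.000486), and ENSMOCG00000004544 of -1.85 (SE 0.18, limma adjusted p = 0.000646). ENSMOCG00000019873 had a positive slope of 1.33 (SE 0.19, limma adjusted p = 0.00191): it was between 9.32 and 19.3 RPKM in replicates 1 to 4 and between 2.95 and 6.83 RPKM in replicates 6 to 11. ENSMOCG00000020300 also had a positive slope, 0.63 (SE 0.13, limma adjusted p = 0.00686). These fits count both libraries of each close pair. With the close pairs also averaged, ENSMOCG00000008275, ENSMOCG00000004544 and ENSMOCG00000019873 still passed (limma adjusted p = 0.0192, 0.01997 and 0.0263). ENSMOCG00000020300 did not pass there, at a slope of 0.62 (limma adjusted p = 0.0578). Over all 11 W- libraries, with replicate 5, the slopes of these genes, in the same order, were -0.53 (SE 0.52), -0.53 (SE 0.42), 0.44 (SE 0.30) and -0.10 (SE 0.24), and none passed.

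**Figure D5:**
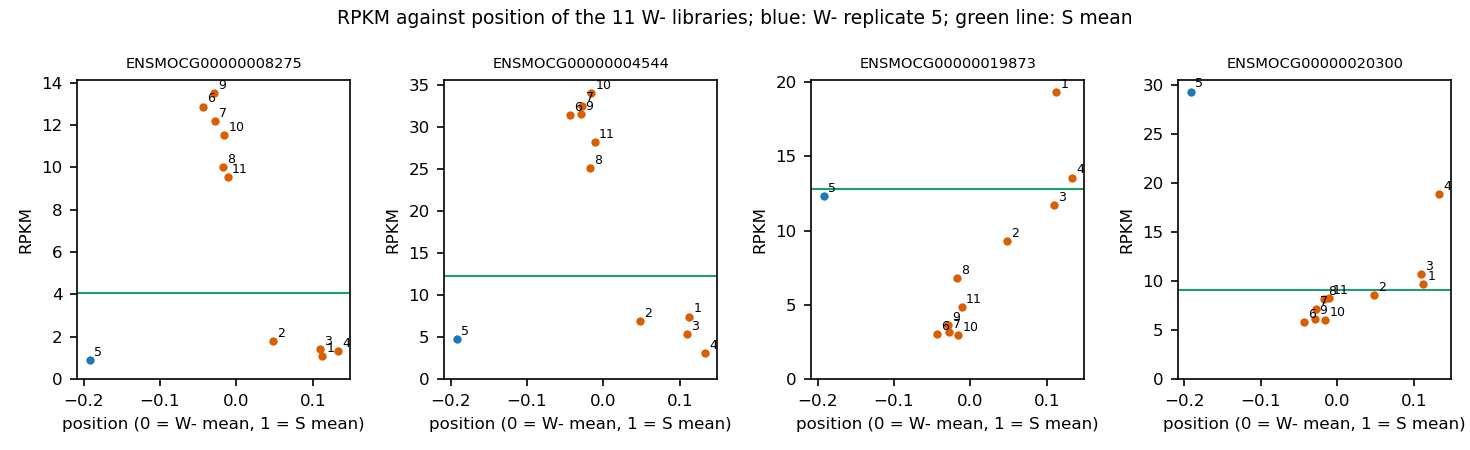
RPKM of 4 genes against the position of the 11 W- libraries (0 = W- mean, 1 = S mean), with W- replicate 5 in blue and the S mean as a green line. Replicates 1 to 4 and 6 to 11 form separate clusters along the x axis, and replicate 5, at -0.192, has the low level of replicates 1 to 4 for ENSMOCG00000008275 and ENSMOCG00000004544.

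Without replicate 5, replicates 1 to 4 and replicates 6 to 11 formed separate clusters along the position, and a gradient within either cluster was not shown, with few libraries over a narrow range in each. Position and depth cannot be told apart across these libraries: when both were in the fit, 0 of the 19185 genes passed for either (limma), and 0 of the 41. For ENSMOCG00000020041, the W- libraries nearest to S over the transcriptome, replicates 1 to 4, were far below its S median of 79.8 RPKM, at 10.5 to 18.0 RPKM, and so was replicate 5, the library farthest from S, at 17.5 RPKM. Conversely, ENSMOCG00000019873 was within its S range of 6.88 to 17.0 RPKM in replicates 2 to 5 and below it in replicates 6, 7, 8, 9, 10 and 11.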

How the data were processed

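Testis RNA of 34 males (18 S, 11 W-, 5 W+) was sequenced from polyA libraries. Per the labels and the study's methods, the authors used Trim Galore 0.6.10, FastQC 0.12.1, HISAT2 against the prairie vole genome MicOch1, HTSeq counts per gene and DESeq2 scaling, from which they deposited RPKM. The annotation release and the treatment of strand and multiply mapped reads were not given in the sources used here. Reads of a related species were aligned, which can lower the level of diverged genes alike in all libraries.

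Reads were recovered from the deposited RPKM, and for 20821 genes 100% of them came out whole (tolerance 0.02). Groups were taken from the sample labels. The 41 genes, the lists and the tests were chosen with earlier results of these data known. Comparisons used limma 3.58.1 in R 4.3.3 (eBayes with trend) on log2(RPKM + 0.1), with Benjamini-Hochberg adjustment over the 19185 genes at 0.1 RPKM or more in at least 5 libraries. Calls needed an adjusted p under 0.05 and, between groups, a log2 fold change beyond 1, with all 34 libraries in 1 fit. Fold changes on this scale understate those of low genes. Slopes were fitted over the 11 W- libraries on position and on log2 counted reads, and a library was left out of its own group mean when placed. It had been assumed that none of the 41 genes could be called between S and W-; 1 was, on the log scale, and was kept out of the genes that set the position. On simulated reads with 200 genes changed 4-fold, the steps called 199 of them for S against W-, 190 for W+ against W- and 188 for W+ against S, with 2, 7 and 7 unchanged genes. For a slope of 2-fold per SD of position they called 170, with 9 unchanged genes (19185 genes each). The simulated reads had 1 spread per gene shared by the groups, and no close pairs of libraries. This recovery therefore does not cover genes chosen for a larger spread over W-, such as the 41.

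Named genes are the 10 with the largest CV over W-, the 10 with the largest lowest CV when 1 W- library is left out, those next to the limit, up to 3 in each direction with the lowest p for each slope, and the 3 highest means over W-; this gave 26 of the 41, of which most are described. ENSMOCG00000013659, ENSMOCG00000019873 and ENSMOCG00000020300 fall outside this rule, as does ENSMOCG00000019322, and were chosen after their values were seen, as were the genes picked as examples of a profile group. ENSMOCG00000015965 also falls outside it and is named below only because 1 of its W+ libraries stood apart. Each library was taken as 1 animal. Libraries with the same replicate number in 2 groups did not deviate together as pairs: the correlations of their deviations were -0.0454 to 0.0960 for S with W-, -0.0515 to 0.0207 for S with W+ and -0.160 to 0.138 for W- with W+, where 1 of 5 was over 0.1. Alternatives were the pseudocount, the filter, quantile and total-read scaling, voom, the replicate block, each replicate left out, and other limits and libraries for the choice.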

Additional observations from a re-analysis of the deposited data

Results flagged for a closer look

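Within the 5 W+ libraries, a library standing apart from the other 4 was looked for in each of the 41 genes, and 3 of the 41 had such a library. Chance alone flags about 1 in 20 groups, so that this count is close to what chance gives. ENSMOCG00000019873 was at 4.97 RPKM in W+ replicate 5, with the nearest of the other W+ libraries at 8.36 RPKM. ENSMOCG00000021754 was at 14.4 RPKM in W+ replicate 1, with the nearest at 6.00 RPKM. ENSMOCG00000015965 was at 9.62 RPKM in W+ replicate 4, with the nearest at 7.21 RPKM. W+ replicate 1 is the W+ library nearest to W- over the transcriptome.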

How the results depend on the processing

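The number of chosen genes was 41; it was 103 with a CV over W- of at least 0.5 and 14 with at least 0.7, all 14 among the 41. Scaling to total reads gave 37 genes, 24 of them shared, averaging the close pairs (added after seeing the data) 59, with 33 shared, and leaving out 1 W- library 30 to 50. For W+ against S, 1579 genes were called; pseudocount 1 gave 1010, and leaving out 1 library 921 (without W+ replicate 1) to 1778. With the replicate number as a block, 9962, 7529 and 2001 genes were called for S against W-, W+ against W- and W+ against S, among them 1, 5 and 4 of the 41 (against 1, 1 and 0 without the block); the samples share only a number, and the cause was not tested. Genes higher in the first group were 55.8%, 58.8% and 14.5% of the calls in these comparisons, 40.6%, 41.6% and 25.6% after quantile scaling, and 34.7%, 40.0% and 62.2% after scaling to total reads, which moved the median log2 difference of S against W- from 0.04 to -0.54 and called 9 of the 41 genes lower in S.

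The slope on position passed for 1796 genes and 0 of the 41. It passed for 0 genes with the counted reads in the fit, 5585 without W- replicates 4 and 5, 4574 on the first principal component, 684 with the close pairs averaged and 0 within replicates 6 to 11. Leaving out 1 library gave 765 (without replicate 3) to 5538 (without replicate 5), with 1059 without replicate 1. Of the 41 genes, 1 passed with no filter, 22 without replicates 4 and 5, 10 on the first principal component and 9 with pairs averaged and without replicate 5, and leaving out 1 library gave 0 to 22. The slope on counted reads passed for 651 genes; it passed for 0 with position in the fit, 1728 with pairs averaged and without replicate 5, 0 within replicates 6 to 11, and 0 (without replicate 5) to 1142 (without replicate 8) leaving out 1 library, with 306, 218, 427 and 426 without replicates 2, 3, 6 and 10. Of the 41 genes, 6 passed without replicates 5 and 11, 1 with pairs averaged and 9 with pairs averaged and without replicate 5. The slope of ENSMOCG00000020300, -0.10 per 0.1 of position, was 0.70 with the counted reads in the fit, 0.44 without replicates 4 and 5, 0.63 without replicate 5, 0.62 with pairs also averaged, from -0.34 to 0.63 leaving out 1 library, and 1.20 within replicates 6 to 11. The fits with 0 genes had fewer libraries or 1 more term; the other causes were not tested.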
